A study of Mus musculus with 6 samples.

Results

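The genes described here are 10 that astrocytes are known for: Gfap, Vim, Slc1a2, Slc1a3, Glul, Aqp4, Gja1, Apoe, Clu and S100b. Every probe set whose platform gene symbol was one of these 10 was taken, which gave 15 of the 12422 probe sets that are not array controls and covered 9 of the 10 genes. Slc1a3, the glutamate transporter GLAST, had no probe set with its name and is not analysed here. Of the 9 measured genes, 6 had a pair of probe sets and 3 (Vim, Slc1a2 and S100b) had 1, and no probe set carried a member's symbol together with another gene's. In probe set names, Affymetrix's letters _f, _r, _i, _s and _g mark sets designed under relaxed rules or sharing probes with other transcripts.

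The arrays measured visual cortex dissected from adult mice (wild type, C57Bl6) that had lost 1 eye. Enucleation was done on 4 mice at P100, and the cortex was taken 4 days later, at P104 (postnatal days). Cortex contralateral to the lost eye is the deprived group (3 arrays) and cortex ipsilateral to it is the non-deprived group (3 arrays); all animals were operated, so the non-deprived hemisphere comes from enucleated mice too. The design text calls the samples pooled, and neither the number of mice in a pool nor separate pools for the 3 arrays of a group are stated, so p-values measure the spread between these arrays, which may be technical.

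Astrocytes take up glutamate and potassium that neurons release, return glutamine to them, pass water and small molecules through channels, and secrete lipoproteins that carry lipid to other cells. After injury or loss of input they can become reactive, a state known above all for more Gfap and Vim, the intermediate filaments of their skeleton. Cytokines of the interleukin-6 family, acting through the transcription factor Stat3, are known to switch on Gfap.

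The promoters of 3 members are shown: those of Gfap and Gja1 because they hold letters of factors whose transcripts the same arrays measured (Stat3, and Fos, a subunit of AP-1), and that of Vim as the filament gene set beside Gfap. Each is the 300-base window of RefSeq's table for GRCm38.p6, 250 bases before to 50 after the annotated start, written 5′ to 3′ on the gene's strand, with motif matches on either strand in capitals. The letters searched for STAT factors were TTCNNNGAA. Those for AP-1 were TGANTCA. Those for the cAMP response element were TGACGTCA. Those for the box that positions the polymerase were TATAAA.
Gfap, chr11:102897151-102897450, minus strand: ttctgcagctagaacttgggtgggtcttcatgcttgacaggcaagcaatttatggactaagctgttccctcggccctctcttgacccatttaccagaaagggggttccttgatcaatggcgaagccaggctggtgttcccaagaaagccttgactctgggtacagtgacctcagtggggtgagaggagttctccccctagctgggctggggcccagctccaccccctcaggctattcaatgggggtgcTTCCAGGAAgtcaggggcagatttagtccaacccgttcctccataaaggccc
Vim, chr2:13574061-13574360, plus strand: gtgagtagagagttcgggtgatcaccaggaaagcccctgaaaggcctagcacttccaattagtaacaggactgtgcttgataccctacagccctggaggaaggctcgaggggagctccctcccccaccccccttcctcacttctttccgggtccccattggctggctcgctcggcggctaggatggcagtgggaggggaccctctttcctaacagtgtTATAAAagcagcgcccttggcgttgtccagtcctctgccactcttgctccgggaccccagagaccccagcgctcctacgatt
Gja1, chr10:56377050-56377349, plus strand: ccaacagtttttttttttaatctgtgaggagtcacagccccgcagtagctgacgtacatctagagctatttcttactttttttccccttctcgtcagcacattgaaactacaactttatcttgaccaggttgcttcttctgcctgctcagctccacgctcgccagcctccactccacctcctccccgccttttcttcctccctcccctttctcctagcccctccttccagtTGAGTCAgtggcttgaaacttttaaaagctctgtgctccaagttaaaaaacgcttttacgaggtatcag
The Gfap window held 1 STAT match, TTCCAGGAA, at its bases 249 to 257. The Vim window held 1 polymerase box match at bases 219 to 224, and the Gja1 window 1 AP-1 match, TGAGTCA, at bases 232 to 238. No match overlapped another in these 3 windows, and the window of the unmeasured Slc1a3, not printed, also held 1 STAT match. Of all 32851 promoter windows in the table, 8.30% held the STAT letters, 13.6% the letters of the polymerase box, 7.81% those of AP-1 and 1.79% those of the cAMP response element, so such matches are common and describe the windows only.

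The comparison asks whether transcripts of astrocytes change in adult cortex when the eye that drives it is removed. None of the 14 member probe sets that could be tested differed between deprived and non-deprived cortex at an adjusted p under 0.05 (limma, Benjamini-Hochberg adjustment over all 7453 tested probe sets; smallest adjusted p among members = 0.967). None had an unadjusted p under 0.05 either (smallest 0.0953). In all tested probe sets 13 passed, which is 0.174%, and 5.09% had an unadjusted p under 0.05. The signals of the 3 deprived and the 3 non-deprived arrays overlapped for each of the 15, while for 10.1% of tested probe sets they did not. In the same arrays Fos fell to 703 ± 87.7 signal units in deprived cortex, against 2946 ± 236 in non-deprived cortex (mean ± SD, n = 3 arrays each; log2 change -2.05, SE 0.12, limma adjusted p = 0.00014).

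How small a change could be seen depended on the probe set. The 95% interval of the log2 change lay within 1.5-fold in both directions for 10 of the 14 tested member probe sets, beside 53.9% of all tested probe sets. It did so for all 5 with a mean signal of at least 1000, beside 91.9% of all tested probe sets that bright, and for 5 of the 9 dimmer ones. For Vim, Slc1a2, the dimmer Gfap probe set and the dimmer Gja1 probe set it did not, and a 1.5-fold rise lay inside the interval of each of these 4. Values below are signal units, a brightness that does not compare transcript amounts between probe sets. In such bulk tissue, fewer astrocytes and less RNA per astrocyte cannot be told apart.

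**Figure D1:**
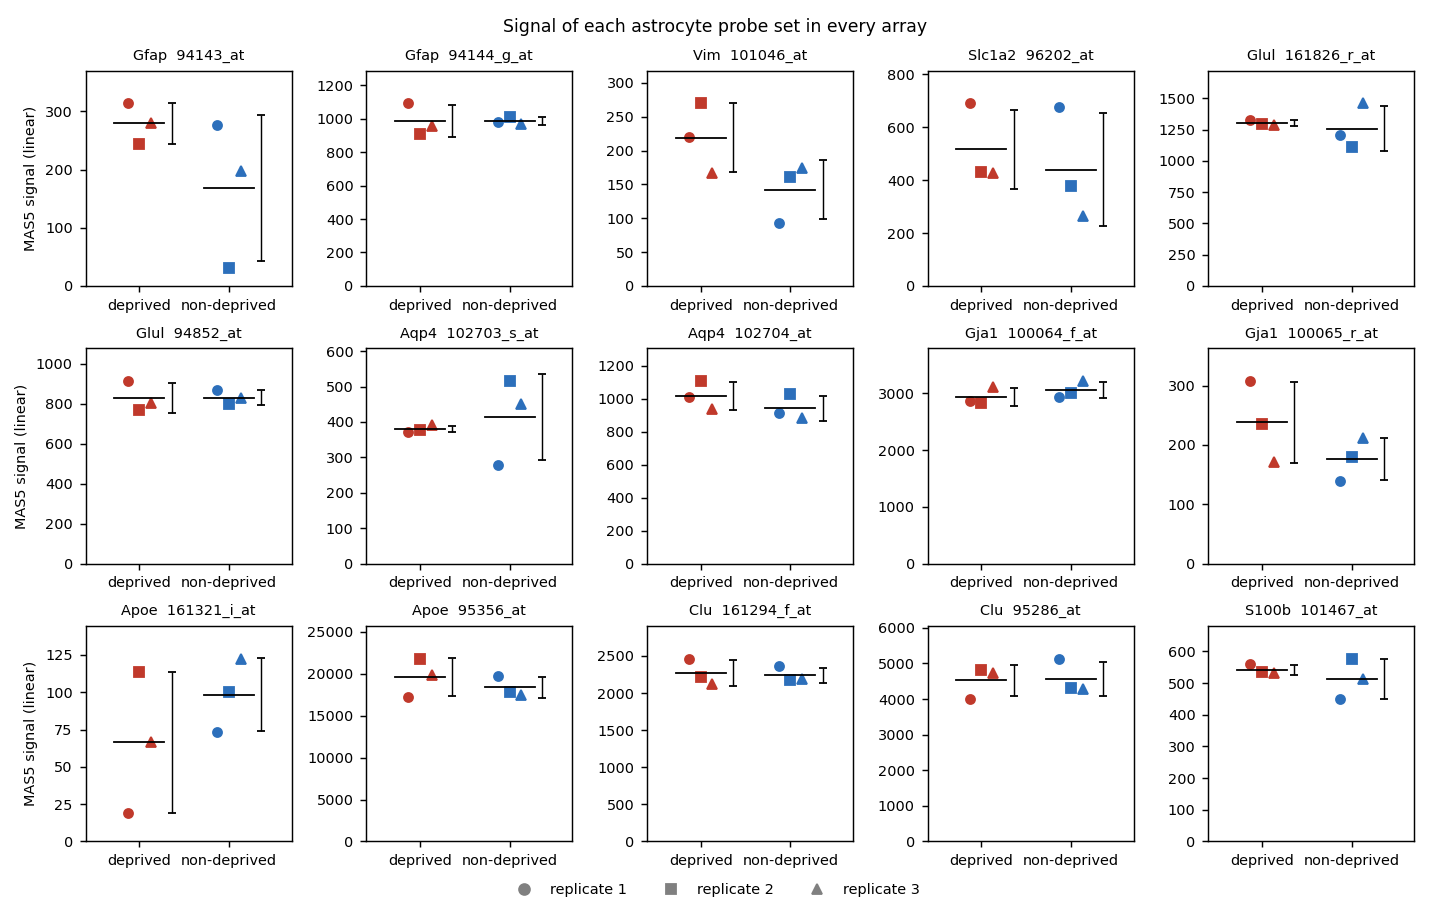
MAS5 signal on a linear axis from 0 for each of the 15 astrocyte probe sets, 1 panel each, in deprived (red) and non-deprived (blue) arrays; symbols mark the replicate number, the bar is the mean and the whisker the SD over 3 arrays. The groups overlap in every panel, and non-deprived replicate 2 reads 30.8 for the dimmer Gfap probe set.

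Gfap, an intermediate filament protein used as a marker of astrocytes, was measured by a pair of probe sets that the platform annotation ties to the same GenBank record. On the brighter one, 94144_g_at, Gfap read 1092, 910.5 and 958.5 in deprived replicates 1 to 3, against 980.8, 1012 and 966.4 in non-deprived replicates 1 to 3. The deprived arrays lay on both sides of the non-deprived ones, and the log2 change was -0.003 (SE 0.12, 95% interval -0.26 to 0.26, limma adjusted p = 0.998). In fold terms that interval runs from 0.833 to 1.19.

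On the dimmer Gfap probe set, 94143_at, the deprived arrays read 313.8, 244.9 and 279.4, against 277.0, 30.8 and 197.0 in the non-deprived arrays. Non-deprived replicate 2 stood far below the other 5 arrays, and non-deprived replicate 1 lay inside the deprived range. The mean was 279 ± 34.5 in deprived and 168 ± 125.6 in non-deprived cortex (SD, n = 3), a log2 change of 1.04 with an SE of 0.58 (95% interval -0.25 to 2.33, limma adjusted p = 0.967). Without non-deprived replicate 2 the log2 change was 0.24, and whether its 30.8 stands above background is not known. On the brighter probe set the same array read 1012, the highest of its group.

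The disagreement between these probe sets was set out array by array. The log2 signal of the dimmer Gfap probe set minus that of the brighter one was -1.75, -1.83 and -1.72 in deprived replicates 1 to 3, against -1.77, -4.46 and -2.21 in non-deprived replicates 1 to 3. The gap was thus nearly constant over the 3 deprived arrays (SD 0.06) and spread widely over the non-deprived ones (SD 1.44). Its group difference was 1.04 (two-sided exact permutation p = 0.2). That p is a description only: the disagreement was known when the genes were chosen, and 3 against 3 arrays cannot give less than 0.1. Without non-deprived replicate 2 the group difference in the gap was 0.22.

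Across the 6 genes with a pair of probe sets, this group difference in the gap gave exact permutation p-values of 0.2 to 0.9, and 0.6 to 0.9 after adjustment over the 6 comparisons. After Gfap, the widest group differences were -0.73 for Apoe and 0.44 for Gja1, whose dimmer probe sets are an _i and an _r set. Leaving out 1 array at a time gave -1.08 to -0.30 for Apoe and 0.23 to 0.68 for Gja1, both nearest 0 without deprived replicate 1. The _i probe set of Apoe lies below the signal filter. For Glul and Clu the gaps differed by -0.07 and 0.03, and for Aqp4 by -0.19.

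**Figure D2:**
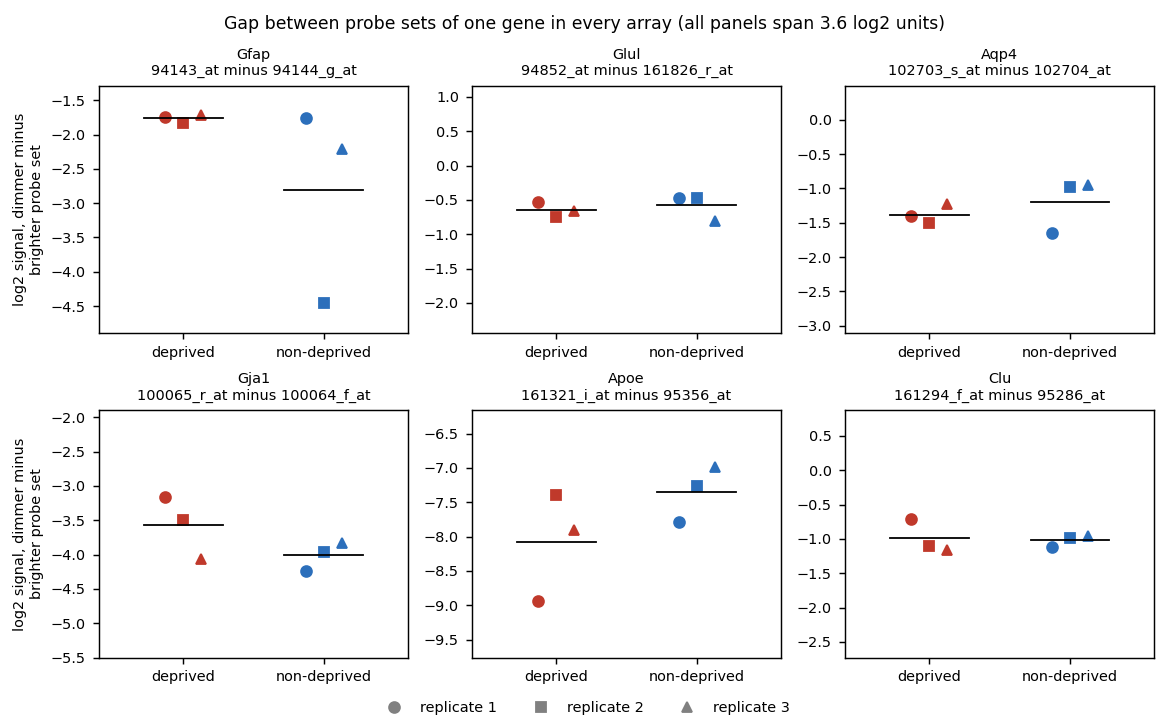
Log2 signal (pseudocount 16) of the dimmer minus the brighter probe set of a gene, for the 6 genes with a pair, in deprived (red) and non-deprived (blue) arrays; symbols mark the replicate number, bars the mean, and every panel spans the same height. For Gfap the deprived arrays sit at -1.83 to -1.72 and non-deprived replicate 2 at -4.46.

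Vim encodes vimentin, the filament protein of immature and reactive astrocytes that is also made by vessel wall and meningeal cells. It read 220.2, 269.5 and 167.0 in deprived arrays, against 92.3, 160.3 and 174.1 in non-deprived arrays. Of the deprived arrays 2 stood above every non-deprived array, while deprived replicate 3 lay inside the non-deprived range. The mean was 219 ± 51.3 in deprived and 142 ± 43.8 in non-deprived cortex, a log2 change of 0.59 (SE 0.32, 95% interval -0.12 to 1.30, limma adjusted p = 0.967). Leaving out 1 array at a time gave log2 changes of 0.34 to 0.76, the lowest without non-deprived replicate 1 and the highest without deprived replicate 3. No background level was used here, so whether signals this dim stand above background is not known.

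The glutamate uptake and recycling genes were Slc1a2 and Glul. Slc1a2, the transporter GLT-1 that clears most glutamate from forebrain synapses, read 689.7, 431.8 and 428.6 in deprived arrays, against 677.4, 376.1 and 264.4 in non-deprived arrays. The replicate numbered 1 was the highest array in both groups, and the other 2 deprived arrays stood above the other 2 non-deprived arrays. The log2 change was 0.29 (SE 0.31, 95% interval -0.41 to 1.00, limma adjusted p = 0.967), and it moved to -0.004 without non-deprived replicate 3 and to 0.65 without non-deprived replicate 1. Within-group spread was wide, with a coefficient of variation of 29.0% in deprived and 48.6% in non-deprived arrays.

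Glul, glutamine synthetase, turns the glutamate taken up into glutamine. Its probe set 94852_at read 912.9, 766.8 and 805.0 in deprived arrays, against 869.5, 797.3 and 826.6 in non-deprived arrays, so the non-deprived values fell inside the deprived range. The log2 change was -0.01 (SE 0.12, 95% interval -0.28 to 0.27). The brighter _r probe set of Glul, 161826_r_at, averaged 1305 ± 23.2 in deprived and 1259 ± 181 in non-deprived cortex (log2 change 0.06, SE 0.12, 95% interval -0.21 to 0.33). Both probe sets of Glul gave intervals within 1.5-fold either way (limma adjusted p = 0.998 and 0.981).

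The channel genes were Aqp4 and Gja1. Aqp4, the water channel of astrocyte endfeet on blood vessels, read 1012, 1107 and 938.4 in deprived arrays on probe set 102704_at, against 914.3, 1029 and 886.6 in non-deprived arrays. Each deprived array stood above the non-deprived array of the same replicate number, by 0.14, 0.10 and 0.08 on the log2 scale. The groups overlapped, however, and the number is not known to pair the samples. For Gja1 100064_f_at the same differences were -0.03, -0.09 and -0.04. On 102704_at the log2 change of Aqp4 was 0.11 (SE 0.12, 95% interval -0.16 to 0.38, limma adjusted p = 0.967). The dimmer _s probe set of Aqp4, 102703_s_at, averaged 381 ± 9.29 in deprived and 415 ± 121 in non-deprived cortex (log2 change -0.08, SE 0.22), and its 3 deprived values lay between the lowest and the other non-deprived ones.

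Gja1 encodes connexin 43, which joins astrocytes by gap junctions. Its _f probe set 100064_f_at read 2866, 2832 and 3115 in deprived arrays, against 2935, 3014 and 3213 in non-deprived arrays. The ranges overlapped over most of their length, with a log2 change of -0.06 (SE 0.09, 95% interval -0.25 to 0.14, limma adjusted p = 0.969). The _r probe set 100065_r_at of Gja1, tied by the annotation to the same GenBank record, read 307.2, 235.3 and 171.6 in deprived arrays, against 139.7, 179.2 and 211.1 in non-deprived arrays. Its 2 highest arrays were deprived, but deprived replicate 3 lay below 2 of the non-deprived arrays (log2 change 0.38, SE 0.28, 95% interval -0.25 to 1.01).

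The secreted lipid carriers were Apoe and Clu. Apoe, the main lipoprotein of brain, which microglia also make, read 17257.9, 21749.1 and 19860.8 in deprived arrays on probe set 95356_at, against 19761.1, 17845.0 and 17506.2 in non-deprived arrays. Both the lowest and the highest of the 6 values were deprived (log2 change 0.09, SE 0.09, 95% interval -0.11 to 0.29, limma adjusted p = 0.967). Its _i probe set, 161321_i_at, was the only member below the signal filter and was not in the main test. There Apoe read 19.1, 113.3 and 66.9 in deprived arrays, against 73.1 to 122.3 in non-deprived arrays, a log2 change of -0.64 with an SE of 0.49 in a fit without the filter, at signals not shown to be above background.

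Clu, clusterin or apolipoprotein J, is a secreted chaperone that some neurons also make. On probe set 95286_at it read 4010, 4810 and 4746 in deprived arrays, against 5126, 4312 and 4272 in non-deprived arrays, so the lowest value was deprived, the highest non-deprived, and the ranges overlapped between 4272 and 4810. The log2 change was -0.01 (SE 0.11, 95% interval -0.25 to 0.22, limma adjusted p = 0.997). The _f probe set of Clu, 161294_f_at, averaged 2268 ± 171 in deprived and 2237 ± 104.1 in non-deprived cortex (log2 change 0.02, SE 0.10). S100b, a calcium-binding protein of astrocytes and of some oligodendrocyte lineage cells, read 561.0, 533.6 and 531.7 in deprived arrays, against 448.7, 576.0 and 513.8 in non-deprived arrays. The deprived S100b values sat inside the non-deprived range (log2 change 0.08, SE 0.14, 95% interval -0.24 to 0.41, limma adjusted p = 0.972).

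**Figure D3:**
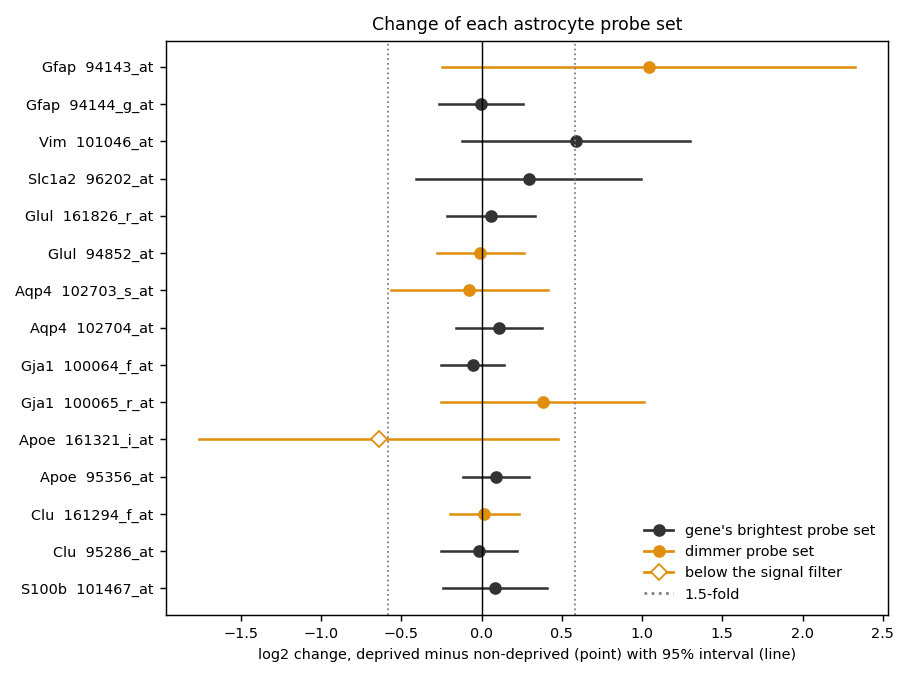
Log2 change (deprived minus non-deprived, x axis) with its 95% interval for each of the 15 probe sets, grouped by role; dark marks are a gene's brightest probe set, orange ones the dimmer, the open diamond the Apoe probe set below the signal filter, and dotted lines mark 1.5-fold. Every interval spans 0, and those of Vim, Slc1a2, 94143_at, 100065_r_at and 161321_i_at reach past a dotted line.

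Taking the brightest probe set of each of the 9 measured genes, 6 had a log2 change above 0 and 3 below, with a median of 0.08 and a range of -0.06 to 0.59. Over all 5653 tested genes, each at its brightest probe set, the median was 0.01 and 52.6% lay above 0. The mean log2 signal of the 9 genes was 10.51, 10.50 and 10.41 in deprived replicates 1 to 3, against 10.36, 10.36 and 10.32 in non-deprived replicates 1 to 3. All deprived arrays stood above all non-deprived ones in this mean, by 0.13 on average, and no test is given because the genes were chosen with results known. Without Vim the difference was 0.07 and the groups overlapped (10.84, 10.80 and 10.77 in deprived against 10.81, 10.72 and 10.66 in non-deprived arrays). Without Vim and Slc1a2 the difference was 0.04 and the groups did not overlap (11.03, 11.08 and 11.05 in deprived against 11.01, 11.02 and 11.02 in non-deprived arrays). Among single tested probe sets, 10.1% had groups that did not overlap. The same mean over the 40 other astrocyte genes tested, described next, did overlap (10.01 to 10.09 in deprived and 9.97 to 10.05 in non-deprived arrays).

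Other astrocyte genes were read from a longer list. Of 60 listed, 40 were tested, and 0 rose and 0 fell at an adjusted p under 0.05 by limma (0.195% of all tested genes did), with a median log2 change of 0.05, 25 genes above 0 and 15 below. At an unadjusted p under 0.05 stood 2 genes, both lower, beside 5.18% of all tested genes. They are named after their values were seen. Aldoc, the astrocyte form of the glycolytic enzyme aldolase, averaged 7211 ± 838 in deprived and 8530 ± 546 in non-deprived cortex (log2 change -0.25, SE 0.10, adjusted p = 0.950). Dio2, which activates thyroid hormone, averaged 661 ± 125.8 in deprived and 851 ± 78.4 in non-deprived cortex (log2 change -0.37, SE 0.16, adjusted p = 0.950).

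The 4 genes with the highest signal on that list, named whatever their change, were the cysteine protease inhibitor Cst3, the peptide-processing enzyme Cpe, the metallothionein Mt3 and the matrix protein Sparcl1. Their log2 changes were 0.06 (SE 0.08) for Cst3, 0.05 (SE 0.07) for Cpe on an _f probe set, -0.11 (SE 0.10) for Mt3 and 0.07 (SE 0.07) for Sparcl1, and the adjusted p of each was 0.967. Their 95% intervals ran from -0.34 (Mt3) to 0.23 (Cst3), so none reached 1.5-fold.

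Genes that reactive astrocytes are known to raise were mostly dim. Of 40 listed, 28 had a probe set, 18 of these fell below the signal filter and 10 were tested, with 0 past the adjusted threshold in either direction and 0 at an unadjusted p under 0.05 by limma. Their median log2 change was 0.01, with 6 genes above 0 and 4 below. In a fit without the filter 0 of the 28 passed the adjusted threshold (0.0725% of all probe sets did), 1 had an unadjusted p under 0.05 (5.1% of all probe sets did) and 14 lay on each side of 0. That 1 was Tgm2, a protein-crosslinking enzyme, named after its values were seen, at 26.8, 32.1 and 25.3 in deprived arrays, against 69.6, 35.5 and 110.5 in non-deprived arrays (log2 change -0.90, SE 0.39, adjusted p = 0.955), with a mean signal below the filter. The 4 brightest were Timp1, an inhibitor of matrix metalloproteinases (852 ± 57.9 in deprived and 855 ± 131 in non-deprived cortex, log2 change 0.005, SE 0.14), S100a10, an annexin partner (-0.05, SE 0.12), Cd14, an endotoxin co-receptor (0.11, SE 0.17), and S1pr3, a sphingosine-1-phosphate receptor (-0.11, SE 0.15).

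Ligands, receptors and transducers of the signals known to induce Gfap gave 22 tested genes of 46 listed, with 0 rises and 0 falls at an adjusted p under 0.05 and a median log2 change of 0.07. Stat3, the transducer of the interleukin-6 family, averaged 1575 ± 227 in deprived and 1486 ± 155 in non-deprived cortex (log2 change 0.08, SE 0.13, 95% interval -0.22 to 0.37). Jak1, its kinase, had -0.13 (SE 0.13), Rela, an NF-kappaB subunit, -0.17 (SE 0.11), and Smad1, a transducer of bone morphogenetic proteins, 0.25 (SE 0.12) on a _g probe set. These 4 had the highest signal of the list. Of 40 with a probe set, 18 fell below the signal filter. An unadjusted p under 0.05 was reached by 1 higher and 2 lower genes of the 22, beside 5.18% of all tested genes, and by 2 of the 40 without the filter, where Relb no longer did. These genes are named after their values were seen. Cntfr, the receptor subunit for ciliary neurotrophic factor, averaged 407 ± 87.3 in deprived and 242 ± 48.1 in non-deprived cortex (log2 change 0.71, SE 0.22, limma adjusted p = 0.839). The kinase Tyk2 had -0.92 (SE 0.36) and the NF-kappaB subunit Relb -0.52 (SE 0.23), each with an adjusted p of 0.950.

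Partners of Apoe and Clu in lipid transport and cholesterol synthesis gave 17 tested genes of 28 listed, Apoe and Clu included, with 0 past the adjusted threshold, 0 at an unadjusted p under 0.05 by limma and a median log2 change of -0.003. Beside Apoe and Clu the brightest were Lrp1, a receptor that takes up Apoe particles, at 2540 ± 51.7 in deprived and 2557 ± 16.9 in non-deprived cortex (log2 change -0.01, SE 0.08), and Abcg1, a cholesterol exporter, at 1831 ± 108.1 in deprived and 1769 ± 171 in non-deprived cortex (0.05, SE 0.11).

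Markers of the other cell types in a cortical sample were read in the same arrays. Of 9 astrocyte markers, 7 had a tested probe set; Slc1a3 and Aldh1l1 had none with their name. By limma 0 markers of any other cell type passed the adjusted threshold and 0 had an unadjusted p under 0.05, beside 5.18% of all tested genes. In a fit without the filter 1 of the 9 oligodendrocyte markers with a probe set had an unadjusted p under 0.05, beside 5.1% of all probe sets. No marker of the other lists did, and 0 passed the adjusted threshold. The median log2 change was 0.06 for 9 microglial markers (summed signal 7405 to 8493 in deprived and 7285 to 8135 in non-deprived arrays), 0.06 for 7 oligodendrocyte markers (12522 to 14074 in deprived and 12398 to 13462 in non-deprived arrays) and -0.10 for 8 neuron markers (39681 to 44886 in deprived and 41577 to 43628 in non-deprived arrays). It was -0.22 for 6 endothelial and vessel wall markers (1303 to 1843 in deprived and 1648 to 1689 in non-deprived arrays) and -0.01 for 6 meningeal and choroid plexus markers (26740 to 28619 in deprived and 22301 to 29172 in non-deprived arrays). The ranges of the groups overlapped for each list, and their part in the values of Vim, Apoe, Clu and S100b was not tested.

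**Figure D4:**
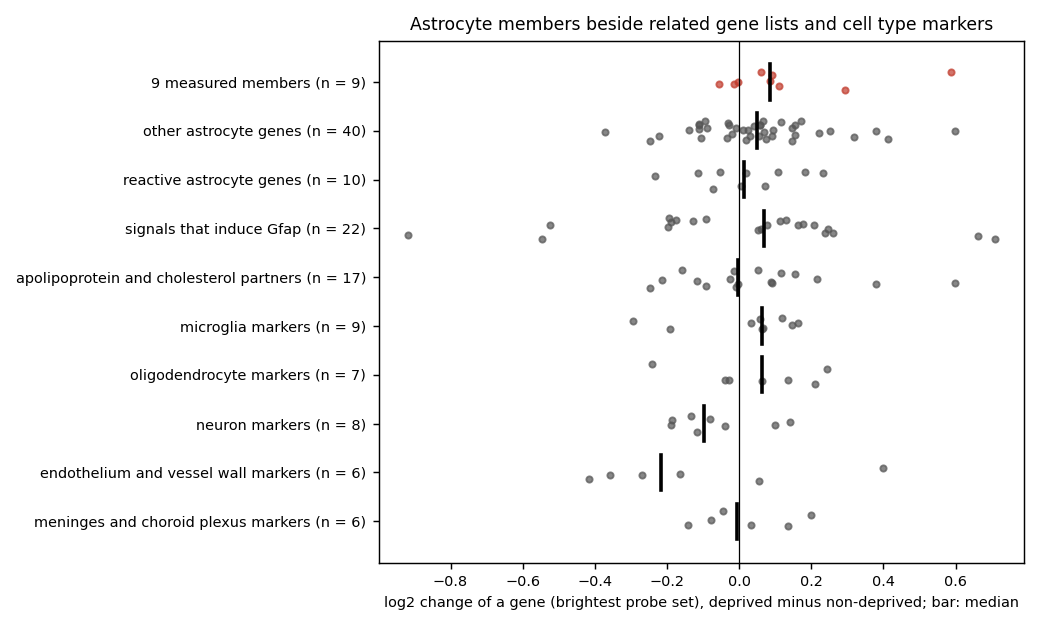
Log2 change (deprived minus non-deprived, x axis) of each gene at its brightest probe set, for the 9 measured astrocyte members (red) and for each other list or marker set (grey); the black bar is the median. The medians lie between -0.22 and 0.08, and Vim is the member farthest to the right at 0.59.

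Across the 6 arrays the median signal ranged from 202.8 to 219.7. The 3′ to 5′ signal ratio, a measure of RNA integrity, ranged from 1.26 to 1.63 for β-actin and 0.940 to 1.10 for Gapdh, in both cases with overlapping groups. Non-deprived replicate 3 stood apart in its 18S ribosomal RNA control, at 2689 against 661 to 980.9 in the other 5 arrays. Without it the log2 change was 1.33 for the dimmer Gfap probe set, 0.74 for Vim and -0.004 for Slc1a2, and 0 member probe sets passed.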

How the data were processed

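The authors deposited 1 table of MAS5 signal intensity on a linear scale for 12488 probe sets and 6 arrays; MAS5 is named per the submitters' processing notes. The deposited columns share a 2% trimmed mean of 499.9, so they were used without further scaling. Detection calls were not used here, so dim signal cannot be told from background. After 66 control probe sets were set aside, the top 60% by mean signal (7453, at least 134.7) were tested on log2(signal + 16), which makes fold changes of low signals smaller. Deprived minus non-deprived was fitted with limma 3.58.1 in R 4.3.3 (lmFit, eBayes with an intensity trend, two-sided, group only, Benjamini-Hochberg adjustment, threshold 0.05); the code was tested on simulated data. Gaps between probe sets were compared with exact permutation tests (scipy 1.17.1). Gene names came from the platform annotation, updated through Entrez IDs (10839 of 10855 single-symbol probe sets matched). The members and gene lists were chosen with earlier results of these data known. The rule for names was every member probe set, the 4 brightest genes of each other list except the cell type markers, and any gene past the threshold; other genes are marked in the text as named after their values were seen. Alternatives were quantile normalization, pseudocounts of 1 and 64, no filter, the top 40%, a replicate block, each array left out, no intensity trend, and a gene-level mean over probe sets. The number of arrays limits the precision.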

Additional observations from a re-analysis of the deposited data

How the results depend on the processing

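The number of member probe sets past the adjusted threshold was 0 by limma in the main analysis and in each of the 14 alternatives run, and it was 0 in each of them for the other 9 gene lists too. The median log2 change of the 9 measured members was 0.08, with a range of 0.05 to 0.09 over 13 alternatives (0.05 to 0.08 without 1 array). Among these, the top 40% did not include Vim, and the median of the remaining members there was 0.07. Same-numbered arrays deviated from their group means with correlations of 0.003, 0.05 and -0.02, so the numbers are not shown to pair the samples; with a replicate block 0 member probe sets passed, the median was 0.08, and no call changed. Pseudocounts of 1 and 64 gave 1.21 and 0.75 for the dimmer Gfap probe set. Among the settings fitted per probe set, only leaving out arrays turned the sign of a member probe set's log2 change, in each case near 0. Gene-level means are not counted there. For Gfap, Gja1, Apoe and Clu the dimmer probe set changed more than the brighter one and in the opposite direction. For Clu both changes were near 0 (0.02 and -0.01). The gene-level mean of these genes therefore takes the sign of the dimmer probe set. The ranges without 1 array were -0.077 to 0.052 for Gfap 94144_g_at, -0.0043 to 0.65 for Slc1a2, -0.027 to 0.17 for Glul 161826_r_at, -0.079 to 0.045 for Glul 94852_at, -0.33 to 0.10 for Aqp4 102703_s_at, -0.041 to 0.063 for Clu 161294_f_at, -0.062 to 0.070 for Clu 95286_at, -0.0054 to 0.17 for S100b, and -0.11 to 0.12 for the Clu gap. The dimmer Gfap probe set ranged from 0.24 to 1.56 and Vim from 0.34 to 0.76; the cause was not tested. List medians that moved by more than the spread between arrays were -0.07 (reactive) and 0.10 (meninges) with gene-level means, -0.06 (microglia) without non-deprived replicate 3, -0.03 (oligodendrocyte) with no filter and 0.07 (vessel) with the top 40%; the vessel median ranged from -0.32 to -0.09 without 1 array. The means without Vim, and without Vim and Slc1a2, were chosen after seeing the data.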
